A study of Homo sapiens with 24 samples.

Results

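The polypyrimidine tract-binding (PTB) family was represented by 3 of the 12547 endogenous genes measured, PTBP1, PTBP2 and PTBP3, which were taken by name. The set was chosen by its PTBP2 signal, which was higher in cells carrying a QKI guide than in sgNS cells, so PTBP2 differences between QKI-guide and sgNS cells are given below as a description with no test. The study asked how QKI, and its QKI7 isoform, affects mRNA stability in U2OS, a human bone osteosarcoma cell line. Its 24 polyA RNA libraries came from 4 genotypes. These were cells with the QKI guide and intact QKI7 added back (sgQKI+QKI7-WT, here QKI7-WT), cells with the QKI guide and QKI7 labelled △KH (sgQKI+QKI7-△KH, here QKI7-△KH), cells with the QKI guide and EV (sgQKI+EV), and cells with the sgNS guide and EV (sgNS+EV). EV is read here as an empty vector, and △KH as loss of the KH domain. Each genotype was sampled at 0, 4 and 8 h of a chase in 5 µg/mL actinomycin D, which blocks transcription, together with 200 µM sodium arsenite, an oxidative stressor, so every chased library had both agents. Each of the 12 groups had 2 libraries. The sources used here do not say whether a genotype is 1 clone or a pool of cells. They also do not say whether the libraries of a group came from separate cultures, so p-values measure only the spread between libraries, which may be technical.

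PTB proteins bind pyrimidine-rich RNA and mostly repress the inclusion of nearby exons. PTBP1 is the form found in most tissues. PTBP2, also called nPTB, is high in neurons and their precursors, and PTBP3 is also called ROD1, for an effect of the human gene on differentiation in fission yeast. In cells rich in PTBP1, that protein represses an exon of PTBP2, and the PTBP2 mRNA without this exon is degraded by nonsense-mediated decay, so a fall in PTBP1 usually raises PTBP2. QKI is a STAR-family protein that recognises short ACUAA-type elements through its KH domain, regulates splicing, and affects the stability of bound mRNAs. The values here are per gene and do not show which exons an mRNA contained.

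The positions of the QKI core element are shown first, because they say where each family mRNA carries the letters that QKI is known to recognise. The letters searched were ACTAAC and ACTAAT on the transcript strand only, in GENCODE 29 transcripts on GRCh38. For each gene the principal and the longest coding transcript were read. No match overlapped another. Capitals mark the motif within 30 bases, written 5′ to 3′ in DNA letters.

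PTBP1 (ENSG00000011304.19, plus strand of chr19:797075-812327) had 1 match, in the coding sequence at chr19:803594-803599.
PTBP1 ACTAAC: tctacttgtgtcACTAACggaccgtttatc
PTBP2 (ENSG00000117569.18, plus strand of chr1:96721665-96823738) had no match in its principal transcript of 3027 bases. Its longest coding transcript, of 12014 bases, had 4, all in the extended 3′ UTR, beginning at 96815225, 96815304, 96816868 and 96816964 on chromosome 1. They fall as 2 close pairs.
PTBP2 ACTAAT, chr1:96815225-96815230: gtagatttatgcACTAATagatcttttgga
PTBP2 ACTAAT, chr1:96815304-96815309: taaagatttcttACTAATcttagactacct
PTBP2 ACTAAT, chr1:96816868-96816873: tgcaattagttaACTAATgccagttcccag
PTBP2 ACTAAT, chr1:96816964-96816969: ctacaaagaaatACTAATgttttaaaatta
PTBP3 (ENSG00000119314.15, minus strand of chr9:112217716-112333667) had 2 matches in its principal transcript, in the coding sequence and the 3′ UTR, and the longest coding transcript added 1 more in the 3′ UTR.
PTBP3 ACTAAT, coding, chr9:112275871-112275876: tttggcaaagtaACTAATcttttgatgttg
PTBP3 ACTAAT, 3′ UTR, chr9:112223109-112223114: gatgtcagaataACTAATaattttattagg
PTBP3 ACTAAT, 3′ UTR of the longest transcript, chr9:112217781-112217786: taggtaatcactACTAATctttgctggctt

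Such matches are common at these lengths. ACTAAC was present in 22.1% of principal transcripts of measured genes within 10% of the length of the PTBP1 principal transcript. ACTAAT was present in 35.1% of those as long as the PTBP3 principal transcript and in 80.6% of those as long as the longest PTBP2 transcript. The deposited values do not say which PTBP2 transcript was present. The 3 genes shared no stretch of 50 bases with each other in their coding transcripts, and no gene overlapping any of them was in the table.

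Values are the authors' signal after scaling to ERCC spike-in RNAs, on a linear scale. It is not known to be per length, so levels are compared between samples. Between genes, only the markers with the most signal are named, and sums over markers weigh those most. Read depth is unknown and no counting error can be given. The libraries held from 690431 to 1367860 units of endogenous signal, and replicate libraries correlated with Pearson r of 0.9889 to 0.9982 across genes. The least alike pair was QKI7-WT at 4 h. QKI itself had a signal of 36.0 and 32.7 in sgQKI+EV cells at 0 h, against 60.0 and 48.2 in sgNS+EV cells. Its log2 difference was −0.63 (SE 0.14, adjusted p = 0.0264 by limma), with −0.62 after quantile normalisation (adjusted p = 0.0319) and −0.46 after scaling to equal library totals (adjusted p = 0.0781). QKI signal at 0 h was 60.4 and 46.3 in QKI7-WT cells and 47.6 and 50.2 in QKI7-△KH cells, and reads of the construct and of the cell's own gene cannot be told apart. Of 10 mesenchymal and osteoblast markers 7 were in the table, led by VIM and SPARC, and of 5 blood cell markers none was.

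Of the 3 members PTBP2, the neuronal paralogue, differed most between genotypes at 0 h. That ranking is in part given by the choice of PTBP2 for its difference between QKI-guide and sgNS cells. At 0 h its signal was 46.0 and 38.5 in QKI7-WT cells, 64.2 and 62.5 in QKI7-△KH cells, 54.2 and 52.9 in sgQKI+EV cells, and 29.7 and 28.5 in sgNS+EV cells. The 4 genotypes did not overlap, with QKI7-△KH highest, then sgQKI+EV, then QKI7-WT, then sgNS+EV. That order was read from PTBP2 and includes the contrast it was chosen by, so the 0.359% of all genes that shared it at 0 h is given only as background. In bulk RNA, a larger share of cells with PTBP2 and more PTBP2 RNA per cell cannot be told apart. After 4 h PTBP2 signal was 44.2 and 30.5 in QKI7-WT cells, 42.0 and 41.5 in QKI7-△KH cells, 34.97 and 34.4 in sgQKI+EV cells, and 28.98 and 27.1 in sgNS+EV cells. The QKI7-WT libraries then lay so far apart that they spanned both QKI7-△KH and sgQKI+EV, while all 6 QKI-guide libraries were still above both sgNS+EV libraries. After 8 h PTBP2 signal was 17.5 and 16.4 in QKI7-WT cells, 25.6 and 29.5 in QKI7-△KH cells, 21.5 and 22.3 in sgQKI+EV cells, and 13.6 and 11.9 in sgNS+EV cells. The genotypes lay in the order of 0 h, again without overlap. That order includes the contrast PTBP2 was chosen by, so the 0.128% of all genes that shared it at 8 h is likewise only background. All 6 QKI-guide libraries lay above both sgNS+EV libraries at each of the 3 times for PTBP2, which was chosen for this contrast, so nothing is read from the 0.287% of all genes that did the same.

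**Figure D1:**
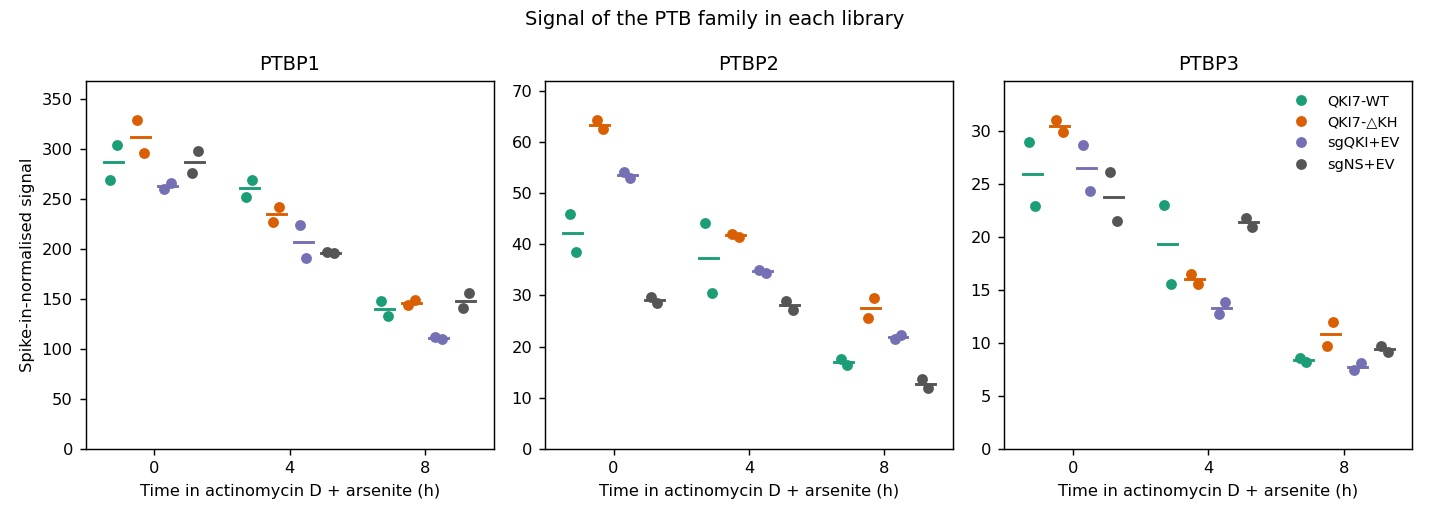
Spike-in-normalised signal (vertical axes, linear, from 0) of PTBP1, PTBP2 and PTBP3 at 0, 4 and 8 h of the chase. Points are the 2 libraries of each genotype and bars their mean; PTBP2 falls into 4 separate levels at 0 h and at 8 h, whereas the genotypes largely overlap for PTBP1 and PTBP3 at 0 h.

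As a description of the contrast for which it was chosen, PTBP2 in sgQKI+EV cells differed from sgNS+EV cells by 0.86 log2 at 0 h (SE 0.12, 1.81-fold), by 0.30 at 4 h (SE 0.12) and by 0.74 at 8 h (SE 0.12). The matching medians over all genes were −0.06, −0.15 and −0.20. At 0 h, 195 genes (1.55%) passed this comparison, 23 higher and 172 lower, where passing means an adjusted p under 0.05. The split depended on scaling, with 325 higher and 451 lower after quantile normalisation and 930 higher and 102 lower after scaling to equal library totals. The PTBP2 difference at 0 h was 0.98 and 1.03 under those scalings, beside a median gene at 0.0097 and 0.11. QKI7-WT and QKI7-△KH cells differed from sgNS+EV cells in PTBP2 by 0.52 and 1.10 log2 at 0 h (SE 0.12 each), and the libraries of each lay above both sgNS+EV libraries. Against sgQKI+EV cells the PTBP2 difference was −0.34 in QKI7-WT cells and 0.24 in QKI7-△KH cells. Both of these share the sgQKI+EV libraries and are given without a test. The last of them was −0.01 after scaling to equal library totals.

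QKI7-WT against QKI7-△KH cells is the comparison of intact with KH-deleted QKI7, and it uses no library of the sgQKI+EV and sgNS+EV groups. Both genotypes carry the QKI guide, and PTBP2 was chosen as higher in QKI-guide cells. The PTBP2 p-values of this comparison are therefore not taken as free of that choice. PTBP2 was lower in QKI7-WT than in QKI7-△KH cells at 0 h, averaging 42.2 ± 5.27 and 63.4 ± 1.19 (SD, n = 2 each). The log2 difference was −0.58 (SE 0.12, adjusted p = 0.0111), which is 0.669-fold. In this comparison 3.75% of all genes passed, 6 higher and 465 lower, and the median gene differed by −0.15. The 2 QKI7-WT libraries lay below both QKI7-△KH libraries for 54.6% of all genes, so absence of overlap says little here. The PTBP2 difference was −0.44 after quantile normalisation (adjusted p = 0.0798) and −0.43 after scaling to equal library totals (adjusted p = 0.166), neither past the threshold. Equal totals placed the median gene at −0.0098. Under those scalings 49 genes were higher and 93 lower, and 17 higher and 38 lower. The call was also lost without the second QKI7-WT library (−0.46, adjusted p = 0.0874), without the first QKI7-△KH library (−0.56, adjusted p = 0.191) and without the second (−0.60, adjusted p = 0.0533).

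At 8 h PTBP2 again averaged less in QKI7-WT than in QKI7-△KH cells, 17.0 ± 0.801 and 27.5 ± 2.72 (SD, n = 2 each). The log2 difference was −0.66 (SE 0.12, adjusted p = 0.00338), beside a median gene at −0.15 and 4.89% of all genes passing. That call held after quantile normalisation (−0.48, adjusted p = 0.0388) and after scaling to equal library totals (−0.57, adjusted p = 0.0157). It was lost without the second QKI7-WT library at 8 h (−0.62) or without the second QKI7-△KH library (−0.57). At 4 h the PTBP2 difference was −0.18 (SE 0.12, adjusted p = 0.363), where 0.98% of all genes passed. It was 0.08 without the second QKI7-WT library, which had a PTBP2 signal of 30.5 against 44.2 in the first.

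**Figure D2:**
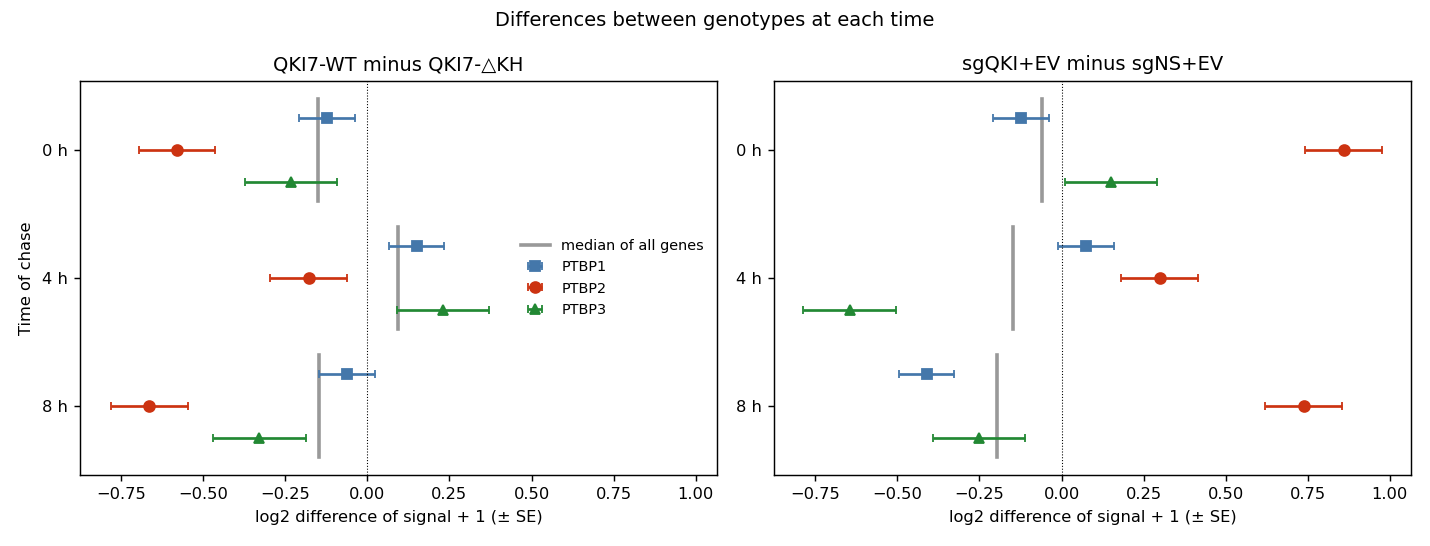
Log2 differences of signal plus 1 (horizontal axes, with SE of the limma fit) for PTBP1, PTBP2 and PTBP3 at 0, 4 and 8 h, for QKI7-WT minus QKI7-△KH and for sgQKI+EV minus sgNS+EV. Grey lines mark the median of all genes; PTBP2 lies right of it at each time in sgQKI+EV minus sgNS+EV and left of it in QKI7-WT minus QKI7-△KH.

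PTBP1, the broadly expressed repressor, passed in neither comparison at 0 h. Its signal was 269.3 and 304.3 in QKI7-WT cells, 328.4 and 296.3 in QKI7-△KH cells, 260.2 and 266.1 in sgQKI+EV cells, and 275.7 and 298.3 in sgNS+EV cells. The sgQKI+EV libraries were the lowest of the 8, and the other genotypes overlapped. The log2 difference of sgQKI+EV from sgNS+EV was −0.12 (95% interval −0.30 to 0.05, adjusted p = 0.586). It turned to 0.05 after scaling to equal library totals. QKI7-WT differed from QKI7-△KH cells by −0.12 in PTBP1 (95% interval −0.30 to 0.05, adjusted p = 0.329), which turned to 0.05 and 0.02 after quantile normalisation and after scaling to equal library totals.

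During the chase PTBP1 signal at 4 h was 251.7 and 269.0 in QKI7-WT cells, 227.2 and 241.7 in QKI7-△KH cells, 224.2 and 190.5 in sgQKI+EV cells, and 196.8 and 195.5 in sgNS+EV cells. QKI7-WT was then the highest genotype for PTBP1. At 8 h PTBP1 signal was 147.4 and 132.8 in QKI7-WT cells, 144.1 and 148.3 in QKI7-△KH cells, 112.3 and 109.5 in sgQKI+EV cells, and 140.4 and 155.5 in sgNS+EV cells. Only the sgQKI+EV libraries stood apart from the others, below them. PTBP1 was lower in sgQKI+EV than in sgNS+EV cells at 8 h by −0.41 log2 (SE 0.08, adjusted p = 0.00118), a comparison in which 34.3% of all genes passed and the median gene was at −0.20. The call was lost after quantile normalisation (−0.11, adjusted p = 0.112) and after scaling to equal library totals (−0.14, adjusted p = 0.249). At 4 h the PTBP1 difference was 0.07 (adjusted p = 0.502), with 40.8% of all genes passing.

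PTBP3 passed in neither comparison at 0 h. Its signal was 28.98 and 22.9 in QKI7-WT cells, 31.0 and 29.9 in QKI7-△KH cells, 28.7 and 24.3 in sgQKI+EV cells, and 26.1 and 21.5 in sgNS+EV cells. Only the QKI7-△KH libraries stood clear of the others. PTBP3 differed by 0.15 log2 between sgQKI+EV and sgNS+EV cells (SE 0.14, adjusted p = 0.726) and by −0.23 between QKI7-WT and QKI7-△KH cells (SE 0.14, adjusted p = 0.281). At 4 h PTBP3 signal was 23.0 and 15.6 in QKI7-WT cells, 16.5 and 15.5 in QKI7-△KH cells, 12.7 and 13.9 in sgQKI+EV cells, and 21.8 and 21.0 in sgNS+EV cells. The sgQKI+EV cells were then lowest, and PTBP3 was lower in them than in sgNS+EV cells by −0.65 log2 (SE 0.14, adjusted p = 0.00162). In that comparison 40.8% of all genes passed, 34% of all genes were lower, and the median gene was at −0.15. PTBP2 lay in the opposite direction in those same libraries. The PTBP3 call at 4 h held without each of the 4 libraries in turn (adjusted p of 0.00795 to 0.0241) and under the other settings (largest adjusted p of 0.0133). At 8 h PTBP3 signal was 8.61 and 8.18 in QKI7-WT cells, 9.72 and 11.99 in QKI7-△KH cells, 7.40 and 8.11 in sgQKI+EV cells, and 9.66 and 9.18 in sgNS+EV cells. The sgQKI+EV libraries were again below those of sgNS+EV, but the difference of −0.25 did not pass (adjusted p = 0.173). It passed when only the groups compared were fitted (adjusted p = 0.0136). PTBP3 in QKI7-WT minus QKI7-△KH cells was 0.23 at 4 h (adjusted p = 0.328) and −0.33 at 8 h (adjusted p = 0.152, and 0.0247 when only the groups compared were fitted). The 4 h value rested on single libraries, being 0.50 without the second QKI7-WT library (adjusted p = 0.00767) and −0.04 without the first.

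Set against sgQKI+EV cells at 0 h, neither PTBP1 nor PTBP3 passed in either add-back. PTBP1 differed by 0.12 in QKI7-WT cells (adjusted p = 1, with 0.0877% of all genes passing) and by 0.24 in QKI7-△KH cells (adjusted p = 0.057, with 12.7% passing and a median gene at 0.19). PTBP3 differed by −0.03 (adjusted p = 1) and 0.20 (adjusted p = 0.282) in the same 2 comparisons. Against sgNS+EV cells, PTBP1 differed by −0.00273 in QKI7-WT cells (adjusted p = 0.997, with 1.63% passing) and by 0.12 in QKI7-△KH cells (adjusted p = 0.348, with 11.4% passing). PTBP3 differed by 0.12 (adjusted p = 0.848) and 0.35 (adjusted p = 0.111) there. When only the groups compared were fitted, PTBP1 passed in QKI7-△KH minus sgQKI+EV cells (adjusted p = 0.00154) and PTBP3 in QKI7-△KH minus sgNS+EV cells (adjusted p = 0.00302).

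Both genes passed in some add-back comparisons later in the chase, which were examined after the 0 h values were known. At 4 h PTBP1 was higher in QKI7-WT than in sgQKI+EV cells by 0.33 log2 (adjusted p = 0.00499) and PTBP3 by 0.48 (adjusted p = 0.0111), with 38.2% of all genes passing and a median gene at 0.20. In QKI7-△KH minus sgQKI+EV cells at 4 h neither passed, where 2.22% of all genes did. At 8 h PTBP1 was higher in QKI7-△KH than in sgQKI+EV cells by 0.40 (adjusted p = 0.00181) and PTBP3 by 0.43 (adjusted p = 0.0196), with 44.3% of all genes passing and a median gene at 0.25. QKI7-WT minus sgQKI+EV cells at 8 h gave no call for either gene, where 0.526% of all genes passed. All 4 of these calls against sgQKI+EV cells were lost after quantile normalisation and after scaling to equal library totals. The PTBP1 call at 4 h was also lost without the second sgQKI+EV library (0.21). The PTBP3 call at 4 h was lost without either sgQKI+EV library or the first QKI7-WT library (0.21), and at 8 h without either sgQKI+EV library or the second QKI7-△KH library (0.29). Against sgNS+EV cells at 4 h, PTBP1 was higher in QKI7-WT (0.41, adjusted p = 0.00327, with 18.7% of all genes passing) and in QKI7-△KH cells (0.26, adjusted p = 0.0232, with 36% passing). PTBP3 was lower in QKI7-△KH than in sgNS+EV cells at 4 h (−0.39, adjusted p = 0.035). After scaling to equal library totals the PTBP1 values were 0.17 and 0.11 (adjusted p = 0.054 and 0.197), while PTBP3 was −0.54 (adjusted p = 0.00506). After quantile normalisation the PTBP1 value in QKI7-WT cells passed (0.13, adjusted p = 0.0499), and those in QKI7-△KH cells did not (0.0531 for PTBP1 and −0.26 for PTBP3, adjusted p = 0.333 and 0.0971). The 3 calls in QKI7-WT cells at 4 h were lost when only the groups compared were fitted (adjusted p = 0.245 and 0.18 for PTBP1 and PTBP3 against sgQKI+EV, and 0.217 for PTBP1 against sgNS+EV), and the PTBP3 call against sgNS+EV without the trend (adjusted p = 0.0514). The PTBP3 call was lost without any 1 of its 4 libraries (adjusted p of 0.0752 to 0.173), and the QKI7-△KH call of PTBP1 without either sgNS+EV library or the second QKI7-△KH library. At 8 h neither gene passed against sgNS+EV cells in either add-back, with 6.58% of all genes passing in QKI7-WT and 4.65% in QKI7-△KH cells.

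The ratio of 2 family members within a library does not change when a library is multiplied by a scaling factor, though quantile normalisation does change it. It was examined after the levels were known, with no test. PTBP2 was chosen as higher in QKI-guide than in sgNS cells, so low PTBP2 ratios in sgNS+EV cells are in part given by that choice. How many other gene pairs share these orders was not counted. The log2 ratio of PTBP2 to PTBP3 at 0 h averaged 0.71 ± 0.06 in QKI7-WT cells, 1.06 ± 0.01 in QKI7-△KH cells, 1.02 ± 0.14 in sgQKI+EV cells and 0.29 ± 0.16 in sgNS+EV cells (SD, n = 2 each). QKI7-△KH and sgQKI+EV cells overlapped in this ratio, QKI7-WT cells lay below both, and sgNS+EV cells were lowest. At 4 h it was 0.96 ± 0.02 in QKI7-WT, 1.38 ± 0.05 in QKI7-△KH, 1.38 ± 0.11 in sgQKI+EV and 0.39 ± 0.03 in sgNS+EV cells. At 8 h it was 1.02 ± 0.02 in QKI7-WT, 1.35 ± 0.07 in QKI7-△KH, 1.498 ± 0.06 in sgQKI+EV and 0.43 ± 0.09 in sgNS+EV cells. QKI7-WT stayed between sgNS+EV and the other QKI-guide cells at all 3 times without overlap, including 4 h, where its 2 libraries differed widely in the level of either gene. The ratio of PTBP2 to PTBP1 was less steady. At 0 h it averaged −2.77 ± 0.31 in QKI7-WT, −2.30 ± 0.08 in QKI7-△KH, −2.30 ± 0.05 in sgQKI+EV and −3.30 ± 0.12 in sgNS+EV cells. At 8 h it averaged −3.04 ± 0.04 in QKI7-WT, −2.41 ± 0.11 in QKI7-△KH, −2.34 ± 0.06 in sgQKI+EV and −3.54 ± 0.24 in sgNS+EV cells, the same arrangement as at 0 h. At 4 h the sgNS+EV ratio of −2.81 ± 0.06 lay within the range of the QKI7-WT libraries, which averaged −2.82 ± 0.45.

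**Figure D3:**
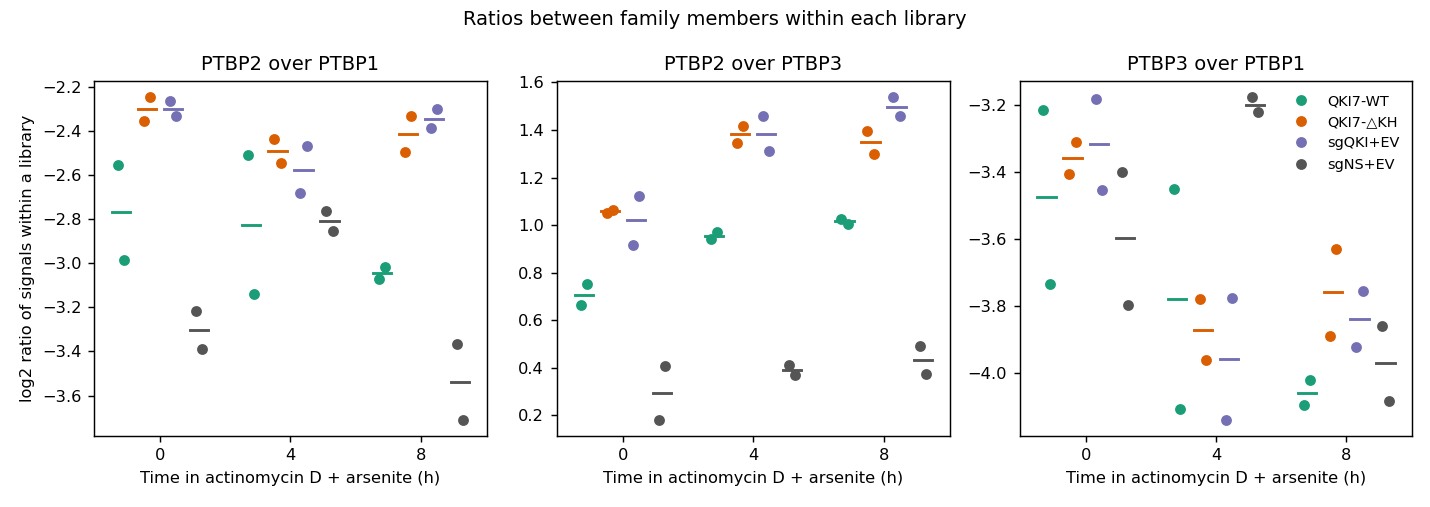
Log2 ratio of the signals of 2 family members within each library (vertical axes) at 0, 4 and 8 h. Points are libraries and bars the mean of 2; for PTBP2 over PTBP3 the QKI7-△KH and sgQKI+EV libraries lie highest, QKI7-WT between, and sgNS+EV lowest at all 3 times.

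All 3 members lost signal over 8 h in every genotype. Between 0 and 8 h PTBP1 changed by −1.03 log2 in QKI7-WT cells, −1.09 in QKI7-△KH cells, −1.24 in sgQKI+EV cells and −0.95 in sgNS+EV cells (largest adjusted p = 1.37e-09). PTBP2 changed by −1.26 in QKI7-WT, −1.18 in QKI7-△KH, −1.25 in sgQKI+EV and −1.13 in sgNS+EV cells (largest adjusted p = 1.47e-08). PTBP3 changed by −1.51 in QKI7-WT, −1.41 in QKI7-△KH, −1.65 in sgQKI+EV and −1.25 in sgNS+EV cells (largest adjusted p = 5.64e-08). Passing here was the rule, with 90.5% of all genes in QKI7-WT, 91.1% in QKI7-△KH, 90.9% in sgQKI+EV and 88.6% in sgNS+EV cells. The median gene changed by −0.77, −0.77, −0.82 and −0.70 in that order, so each member fell by more than the median gene in each genotype. These losses are relative to the spike-ins. After quantile normalisation the falls still passed but were smaller, with PTBP2 at −0.42 in QKI7-WT, −0.38 in QKI7-△KH, −0.36 in sgQKI+EV and −0.29 in sgNS+EV cells. Of the mean PTBP2 signal at 0 h, 40.2% was left at 8 h in QKI7-WT, 43.5% in QKI7-△KH, 40.9% in sgQKI+EV and 43.9% in sgNS+EV cells.

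A decay difference is the change over time in the first genotype minus that in the other, and a negative value means a larger loss in the first. For PTBP2 between 0 and 8 h it was −0.12 for sgQKI+EV against sgNS+EV cells (SE 0.17), given without a test, and −0.02 after scaling to equal library totals. For QKI7-WT against QKI7-△KH cells it was −0.08 (95% interval −0.43 to 0.26, adjusted p = 1). For PTBP1 the decay difference of sgQKI+EV against sgNS+EV was −0.29 (SE 0.12, adjusted p = 0.229) and for PTBP3 −0.40 (SE 0.20, adjusted p = 0.31), in a comparison where 0.677% of all genes passed. The PTBP1 value passed when only the 4 groups compared were fitted (adjusted p = 0.042). PTBP1 and PTBP3 differed by 0.06 and −0.10 in QKI7-WT against QKI7-△KH cells (adjusted p = 1 each), where limma called 0 of all genes.

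**Figure D4:**
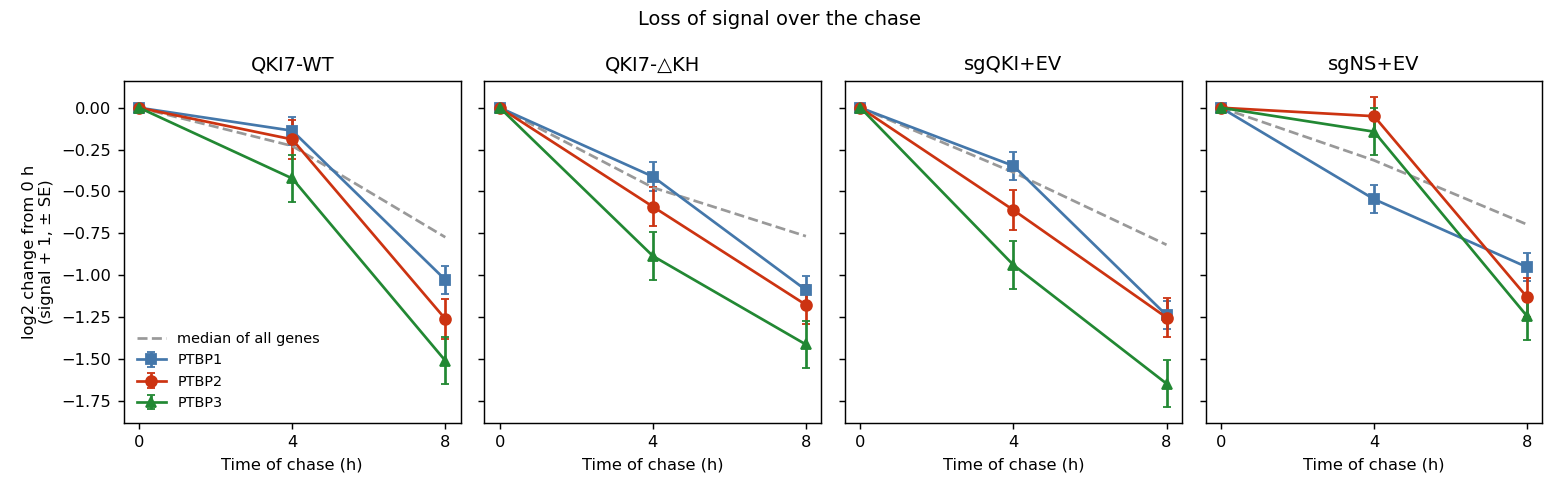
Log2 change of signal plus 1 from 0 h (vertical axis, with SE) at 4 and 8 h for PTBP1, PTBP2 and PTBP3 in each genotype, with the median of all genes dashed. All 3 members end below the median gene in all 4 genotypes, and PTBP2 and PTBP3 in sgNS+EV cells stay near 0 at 4 h.

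The loss by 4 h is described within each genotype, and its difference between genotypes was not tested over this interval. PTBP2 was chosen on the 0 h libraries of sgQKI+EV and sgNS+EV cells. That choice alone can enlarge its fall in sgQKI+EV cells and shrink it in sgNS+EV cells. Its 4 h changes there are given without a test, and no difference between genotypes is read from them. Its losses by 8 h in those groups start from the same libraries. In QKI7-WT cells PTBP2 kept 88.6% of its 0 h mean at 4 h (log2 change −0.19, adjusted p = 0.197) and PTBP3 kept 74.5% (−0.42, adjusted p = 0.0187), with 45.5% of all genes passing and the libraries far apart. In QKI7-△KH cells PTBP2 kept 65.9% and PTBP3 52.7%, and both fell (−0.59, adjusted p = 0.000131, and −0.89, adjusted p = 1.09e-05), where 74% of all genes passed. In sgQKI+EV cells PTBP2 and PTBP3 kept 64.8% and 50.2% (−0.61, without a test, and −0.94, adjusted p = 6.38e-06), with 64.7% of all genes passing. In sgNS+EV cells PTBP2 and PTBP3 kept 96.5% and 89.8% (−0.05, without a test, and −0.14, adjusted p = 0.393). The PTBP3 change did not pass, where 60.3% of all genes did. PTBP1 kept 90.8% in QKI7-WT, 75.1% in QKI7-△KH, 78.8% in sgQKI+EV and 68.3% in sgNS+EV cells. By these means PTBP1 kept least in sgNS+EV cells and PTBP3 kept most there, which was not tested. QKI had 78.1% of its 0 h mean left at 4 h in QKI7-WT, 48.5% in QKI7-△KH, 47.3% in sgQKI+EV and 96.2% in sgNS+EV cells.

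The 4 h means enter both intervals, so a high 4 h level gives a small loss before it and a large loss after it. Between 4 and 8 h PTBP2 changed by −1.07 log2 in QKI7-WT, −0.59 in QKI7-△KH, −0.64 in sgQKI+EV and −1.08 in sgNS+EV cells. All 4 passed, in comparisons where 84%, 58.7%, 79.3% and 66.3% of all genes did. The PTBP2 loss from 4 to 8 h was larger in QKI7-WT than in QKI7-△KH cells by −0.49 log2 (SE 0.17, adjusted p = 0.0497), where 16.1% of all genes passed and the median gene was at −0.23. For sgQKI+EV against sgNS+EV cells the PTBP2 value was 0.44 (SE 0.17), given without a test. PTBP1 went the other way there, with a larger loss in sgQKI+EV than in sgNS+EV cells by −0.49 (SE 0.12, adjusted p = 0.0265), where 13% of all genes passed. The PTBP3 values were 0.39 for sgQKI+EV against sgNS+EV (adjusted p = 0.184) and −0.56 for QKI7-WT against QKI7-△KH cells (adjusted p = 0.0566). Neither the PTBP1 nor the PTBP2 call held after quantile normalisation (adjusted p = 0.103 and 0.569) or after scaling to equal library totals (adjusted p = 0.0742 and 0.431). Both were lost without the mean-variance trend (adjusted p = 0.0651 and 0.0724), and the PTBP2 call also when only the groups compared were fitted (adjusted p = 0.191). Leaving out single libraries gave adjusted p of 0.0106 to 0.191 for PTBP1 and of 0.000265 to 0.271 for PTBP2. The PTBP1 call was lost without either sgNS+EV library at 4 h, the second sgNS+EV library at 8 h, the first sgQKI+EV library at 4 h (−0.37), or either sgQKI+EV library at 8 h. The PTBP2 call was lost without the first QKI7-WT library at 4 h (−0.23), either QKI7-WT library at 8 h, either QKI7-△KH library at 4 h, or the second QKI7-△KH library at 8 h. It was −0.75 without the second QKI7-WT library at 4 h.

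In the wider PTB network, few genes passed at 0 h in sgQKI+EV against sgNS+EV cells or in QKI7-WT against QKI7-△KH cells, and more were higher in QKI7-△KH cells against either EV group. The network was read from lists of genes named for earlier work on PTB proteins. Of 24 partners and co-regulators, such as RAVER1, a PTB co-repressor, and MATR3, a PTB-binding nuclear matrix protein, 23 were measured. None passed in sgQKI+EV against sgNS+EV cells, and their median of −0.02 was beside −0.06 for all genes. In QKI7-WT against QKI7-△KH cells, where 3.71% of all genes were lower, 1 of the 23 was, the splicing factor SRSF3 (−0.22, adjusted p = 0.0402, and −0.03 after quantile normalisation, adjusted p = 0.967), and the median of −0.18 was beside −0.15. The paralogous pair HNRNPL and HNRNPLL, which are splicing repressors related to PTB, differed by 0.02 and −0.02 in sgQKI+EV against sgNS+EV cells (adjusted p = 0.959 and 0.945). Of 30 genes with PTB-regulated exons 28 were measured. In sgQKI+EV against sgNS+EV cells, where 1.37% of all genes were lower, 1 of them was, TPM1, which encodes a tropomyosin (−0.31, adjusted p = 0.0368, with −0.26 after quantile normalisation, adjusted p = 0.000417, and −0.13 after scaling to equal library totals, adjusted p = 0.139). In QKI7-WT against QKI7-△KH cells 2 were lower, RTN4, a reticulon (−0.28, adjusted p = 0.0111), and CTTN, which encodes cortactin (−0.28, adjusted p = 0.0417). After scaling to equal library totals these 2 differed by −0.13 and −0.14 (adjusted p = 0.677 and 0.555). The medians of −0.08 and −0.19 were near those of all genes, −0.06 and −0.15. A change of exon use would not show in these gene totals.

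Of 18 mRNAs linked to PTBP1 in translation or stability 13 were measured, and none passed in sgQKI+EV against sgNS+EV cells at 0 h (median −0.01 beside −0.06 for all genes). In QKI7-WT against QKI7-△KH cells their median of −0.17 was beside −0.15 for all genes, of which 3.71% were lower. There 2 of the 13 were lower, CCND1, which encodes cyclin D1 (−0.32, adjusted p = 0.0163), and P4HA1, a prolyl hydroxylase subunit (−0.27, adjusted p = 0.036). Neither passed after scaling to equal library totals (−0.17 and −0.13, adjusted p = 0.311 and 0.777), while CCND1 passed after quantile normalisation (−0.15, adjusted p = 0.0203). In QKI7-△KH against sgQKI+EV cells at 0 h, where 12.6% of all genes were higher, 5 of the 23 partners, 10 of the 28 exon-list genes and 4 of these 13 mRNAs were higher, and none was lower. The medians were 0.20, 0.21 and 0.21 beside 0.19 for all genes. No gene of the 3 lists passed in that comparison after quantile normalisation or after scaling to equal library totals. Against sgNS+EV cells, where 10.2% of all genes were higher, 2, 5 and 3 of the same lists were higher in QKI7-△KH cells. After scaling to equal library totals those counts were 1, 3 and 2. After quantile normalisation they were 2, 4 and 2, with 1, 3 and 1 lower. The shares of all genes under those scalings are not given here, so nothing is read from these counts. In sgQKI+EV against sgNS+EV cells, equal totals gave 3, 5 and 2 higher members and none lower. Of all 12547 genes 930 were then higher and 102 lower. Quantile normalisation gave 0, 1 and 1 higher and 1, 3 and 1 lower there, with 325 of all genes higher and 451 lower.

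All 13 of the PTBP1-linked mRNAs fell over 8 h in sgNS+EV cells, as did all 23 partners and 26 of the 28 exon-list genes, near the 88.2% of all genes that fell. The median change was −1.14 for the PTBP1-linked mRNAs, −0.70 for the partners and −0.74 for the exon list, beside −0.70 for all genes. The PTBP1-linked median was −1.17 in QKI7-WT, −1.22 in QKI7-△KH and −1.35 in sgQKI+EV cells, beside −0.77, −0.77 and −0.82 for all genes. The larger fall of this list was not tested.

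Neuronal markers stand beside PTBP2 here because it is the neuronal paralogue. Of 14 listed, 6 were measured, and the others were not analysed here. TUBB3 and NEFL made up most of their summed signal, while RBFOX3, SYP, SNAP25 and SYN1 stayed under 10 in every library. At 0 h none passed in sgQKI+EV against sgNS+EV cells, their median difference was −0.35 beside −0.06 for all genes, and their summed signal was 206.126 to 206.679 in sgQKI+EV cells, against 209.897 to 225.735 in sgNS+EV cells. It was 202.724 to 227.033 in QKI7-WT and 223.177 to 256.627 in QKI7-△KH cells, and none passed in that comparison at any of the 3 times. In sgQKI+EV against sgNS+EV cells at 4 h, 1 of the 6 was higher and 2 were lower. Of all genes 6.74% were higher and 34% lower there. At 8 h 2 of the 6 were lower, beside 34% of all genes. Of the mesenchymal markers FN1, which encodes fibronectin, was lower in both comparisons (−0.32, adjusted p = 0.0474, in sgQKI+EV against sgNS+EV cells, and −0.40, adjusted p = 0.0108, in QKI7-WT against QKI7-△KH cells). The first of these was −0.23 after quantile normalisation (adjusted p = 0.000434) and −0.14 after scaling to equal library totals (adjusted p = 0.1), and the second passed under both (adjusted p = 0.0013 and 0.0374).

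Likeness of pattern was measured as Pearson r over the 12 group means of log2 signal among 10558 genes with a mean signal of at least 5. The points share the time course, so a high r is common. PTBP1 was closest to BIRC5, ABCF1, PRPS1, DAP and PFDN1 (r from 0.9961 to 0.9972), and PTBP3 to SUZ12, SETD7, CHML, ZNF131 and PRKAA1 (r from 0.9978 to 0.9989). PTBP2 had looser neighbours, PPP2R2B, MARCH4, C10orf35, DPF1 and CACNB1 (r from 0.9635 to 0.9793). Its r was 0.80 with PTBP1 and 0.81 with PTBP3, while PTBP1 and PTBP3 had 0.94 with each other. After the mean of the 4 genotypes was taken off at each time, PTBP2 was closest to ANXA8L1, PPP2R2B, SFXN5, NRG1 and NPAS2 (r from 0.9186 to 0.9485), and its r was 0.08 with PTBP1, 0.20 with PTBP3 and −0.42 with QKI. PPP2R2B, a regulatory subunit of protein phosphatase 2A, averaged 13.1 ± 1.11 in QKI7-WT, 15.4 ± 1.80 in QKI7-△KH, 14.5 ± 1.63 in sgQKI+EV and 11.2 ± 0.257 in sgNS+EV cells at 0 h (SD, n = 2 each). NRG1, a ligand of ERBB receptors, averaged 7.15 ± 0.605 in QKI7-WT, 11.7 ± 1.44 in QKI7-△KH, 6.97 ± 1.88 in sgQKI+EV and 4.36 ± 0.647 in sgNS+EV cells at 0 h. QKI7-△KH had the highest mean for both, though its PPP2R2B libraries overlapped those of sgQKI+EV cells. Both genes were picked for likeness to PTBP2 over these same means, so nothing is read from the shared top genotype.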

How the data were processed

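The deposited table holds signal values on a linear scale, which the authors had scaled to 38 ERCC spike-in RNAs, as read from the values: those rows summed to between 11484.8 and 11939.9 in each library. STAR, RSEM and GRCh38 are named without versions, per the submitters' processing notes. The unit before spike-in scaling, the way the spike-ins were added and the read depth are unknown here. Titles gave the groups, and 24 columns were matched to 24 libraries by name.

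Signal plus 1 was put on a log2 scale. Requiring 1 or more in 2 or more libraries removed 0 genes. One limma model (limma 3.58.1, R 4.3.3, with trend) estimated 12 group means from the 24 libraries, with 12 residual and 9 prior degrees of freedom. Two-sided p-values were adjusted by Benjamini-Hochberg over 12547 genes, with a threshold of 0.05. Log2 changes, SE and folds come from that model, and each SD from 2 libraries. The method was also tested on simulated data.

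The members, gene lists, tests and naming rule were chosen with earlier results of these data known. Named genes are the 3 members, QKI, HNRNPL and HNRNPLL, up to 4 members per list that passed, and the 5 genes most alike in pattern to each member. RAVER1 and MATR3, as examples, and the values of PPP2R2B and NRG1, stand outside that rule. The result of 1 listed gene is not reported here. The alternatives were quantile normalisation, equal library totals, 0.1 as pseudocount, other filters (none, or a mean signal of at least 5), a replicate block, a model of the compared groups alone, no trend, and leaving out each library. A model without 4 h libraries, the within-library ratios, the add-back comparisons at 4 and 8 h and the list counts under other scalings were added after the data were seen. Sequences and positions came from GENCODE 29 on GRCh38, read with Python 3.11.15.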

Additional observations from a re-analysis of the deposited data

Results flagged for a closer look

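2 differences in the course of loss passed a test of the difference itself between genotypes. The PTBP1 loss between 4 and 8 h was larger in sgQKI+EV than in sgNS+EV cells by −0.49 log2 (limma interaction, adjusted p = 0.0265). The PTBP2 loss over the same interval was larger in QKI7-WT than in QKI7-△KH cells by −0.49 log2 (adjusted p = 0.0497). Neither passed after quantile normalisation, after scaling to equal library totals or without the mean-variance trend, and the PTBP2 value did not pass when only the groups compared were fitted (adjusted p = 0.191). Both rest on 4 h libraries. Those of the PTBP2 value include the least alike replicate pair, QKI7-WT at 4 h, and those of the PTBP1 value do not. The part of that pair in the PTBP2 value was not tested beyond leaving out each of its libraries. That gave −0.23 without the first and −0.75 without the second. Between 0 and 8 h the same 2 differences were −0.29 and −0.08, neither of which passed.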

How the results depend on the processing

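After scaling to equal library totals the PTBP1 difference of sgQKI+EV from sgNS+EV cells at 0 h was 0.0518, in place of −0.12. PTBP1 in QKI7-WT minus QKI7-△KH cells at 0 h was 0.0466 (quantile) and 0.0229 (totals), and at 8 h 0.0644 and 0.0350. PTBP1 in QKI7-WT minus sgNS+EV cells was 0.0222 and 0.0676, and in QKI7-△KH minus sgNS+EV cells −0.0244 (quantile). QKI7-△KH minus sgQKI+EV cells gave −0.00716, −0.00904 and −0.0452 for PTBP1, PTBP2 and PTBP3 (totals). The PTBP2 description in sgQKI+EV minus sgNS+EV cells at 0 h was 0.98 (quantile) and 1.03 (totals), and the PTBP2 decay difference between 0 and 8 h was −0.0151 (totals). PTBP2 in QKI7-WT minus QKI7-△KH cells at 0 h was −0.44 (quantile) and −0.43 (totals), neither past the threshold. The PTBP1 decay difference of −0.29 passed in the fit on the compared groups alone, as did the PTBP3 decay difference of 0.39 from 4 to 8 h in sgQKI+EV against sgNS+EV cells (adjusted p = 0.0189) and PTBP1 in QKI7-WT minus sgQKI+EV cells at 8 h (adjusted p = 0.000756). PTBP3 in QKI7-WT minus sgNS+EV cells at 4 h passed with totals (−0.39, adjusted p = 0.0411). The cause of these changes was not tested. Leaving out each library in turn gave −0.70 to −0.46 for PTBP2 in QKI7-WT minus QKI7-△KH cells at 0 h and −0.21 to −0.0306 for the PTBP2 decay difference between sgQKI+EV and sgNS+EV cells. The decay differences of QKI7-WT against QKI7-△KH cells ran from −0.0270 to 0.15, −0.21 to 0.0404 and −0.26 to 0.0674 for PTBP1, PTBP2 and PTBP3. Ranges that crossed 0 were also −0.0420 to 0.19 (PTBP1, sgQKI+EV minus sgNS+EV at 4 h), −0.44 to 0.0817 and −0.0376 to 0.50 (PTBP2 and PTBP3, QKI7-WT minus QKI7-△KH at 4 h), −0.14 to 0.0121 (PTBP1, the same at 8 h), −0.20 to 0.13 (PTBP3, QKI7-WT minus sgQKI+EV at 0 h), and −0.0907 to 0.0853 and −0.0480 to 0.28 (PTBP1 and PTBP3, QKI7-WT minus sgNS+EV at 0 h), −0.18 to 0.34 (PTBP2, QKI7-WT minus sgQKI+EV at 4 h), −0.43 to 0.10 (PTBP3, QKI7-WT minus sgNS+EV at 4 h) and −0.0886 to 0.0579 (PTBP1, QKI7-△KH minus sgNS+EV at 8 h). Later in the chase, QKI7-WT minus sgQKI+EV cells gave −0.17 for PTBP2 at 4 h and −0.0573 for PTBP3 at 8 h (totals), and QKI7-WT minus sgNS+EV cells 0.0420 (quantile) and 0.0206 (totals) for PTBP1 at 8 h.

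Counts of genes that passed moved more. For sgQKI+EV minus sgNS+EV at 0 h, 195 became 776 (quantile), 1032 (totals), 1328 (compared groups alone), 464 (without 4 h) and 25 to 99 (leaving out a library). For QKI7-WT minus QKI7-△KH at 0 h, 471 became 142, 55, 265, 1588 and 16 to 175 in that order, and 183 without the trend. At 8 h the counts of 4301 and 613 became 1010 and 231 (quantile), 675 and 199 (totals), 6432 and 1723 (compared groups alone), and 1848 to 3183 and 33 to 249 (leaving out a library), and 613 became 395 without the trend. At 4 h in sgQKI+EV minus sgNS+EV, 5117 became 2318 to 4314 when a library was left out. At 4 h in QKI7-WT minus QKI7-△KH, 123 ranged from 0 to 437, and 20 to 4510 when a library was left out. For the decay difference of sgQKI+EV against sgNS+EV, 85 became 54 (totals), 1373 (compared groups alone), 437 (without 4 h), 3 (no trend) and 1 to 11. Between 4 and 8 h, 1628 ranged from 0 to 3467 and 2020 from 0 to 2742 with all libraries, and from 0 to 2400 and 0 to 5220 when a library was left out. Counts against QKI7-WT and QKI7-△KH cells at 0 h with all libraries ranged from 8 to 133 (11, QKI7-WT minus sgQKI+EV), 47 to 3736 (1590, QKI7-△KH minus sgQKI+EV), 35 to 1022 (204, QKI7-WT minus sgNS+EV) and 1006 to 2673 (1434, QKI7-△KH minus sgNS+EV), and with a library left out from 2 to 5, 20 to 1026, 48 to 170 and 227 to 843 in that order. For the same 4 comparisons the counts at 4 h ranged from 24 to 6262 (4788), 2 to 1076 (278), 0 to 4819 (2342) and 1506 to 6426 (4519), and at 8 h from 7 to 1327 (66), 73 to 7935 (5561), 72 to 1706 (825) and 192 to 1921 (583).

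Same-numbered libraries did not deviate together in most pairs of groups (median correlation −0.0172, from −0.424 to 0.483 over 66 pairs, 21 of them over 0.1), though in some they did. The numbers were not taken as a pairing. At 0 h the first library was the higher in every genotype for PTBP2 and PTBP3, but only in QKI7-△KH cells for PTBP1. With a replicate block, 218 genes passed in sgQKI+EV minus sgNS+EV and 564 in QKI7-WT minus QKI7-△KH cells at 0 h, 437 passed in QKI7-WT minus QKI7-△KH at 4 h, PTBP2 kept its call at 0 h (adjusted p = 0.00779), and the PTBP3 decay difference from 4 to 8 h passed (−0.56, adjusted p = 0.0414). The 8 h losses of all 3 members passed under every setting run.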
